A study of Homo sapiens with 6 samples.

Results

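The genes described here are 8 transcription factors of the sympathoadrenal core regulatory circuitry, PHOX2A, HAND1, HAND2, GATA2, GATA3, ISL1, TBX2 and INSM1. They were taken by symbol from tables of 19923 protein-coding genes; all 8 were found, and all 8 were among the 15311 genes expressed highly enough to be tested. The libraries are poly(A) RNA-seq of Kelly cells, an established human neuroblastoma cell line with amplified MYCN and, per the labels, a WT genotype. One group was transfected with a control siRNA (siControl, 3 libraries) and the other with an siRNA against METTL3 (siMETTL3, 3 libraries), both with the same lipid reagent and both for 72 hours, so that every library comes from transfected cells. The siRNA was transient and lowers a gene's RNA without removing the gene, and all libraries are of 1 cell line.

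Sympathetic neurons and the chromaffin cells of the adrenal medulla arise from the neural crest under a set of transcription factors that bind the regulatory regions of one another's genes and of the genes for noradrenaline synthesis. Neuroblastomas in the noradrenergic state keep this network active, whereas those in the mesenchymal state use other factors. METTL3 is the catalytic subunit of the enzyme complex that places N6-methyladenosine (m6A) on mRNA, a mark tied to the stability and translation of transcripts, and the comparison asks how its depletion changes expression in these cells.

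The 8 genes did not move as one. HAND1, HAND2, GATA2 and GATA3 rose in siMETTL3, ISL1 fell to 0.44 of its control level, INSM1 was lower at the limit of the test, and PHOX2A and TBX2 did not pass it. In edgeR's quasi-likelihood test with Benjamini-Hochberg adjustment over all tested genes (false discovery rate, FDR, under 0.05), 6 of the 8 were called, 4 of them higher and 2 lower. Without single libraries the 4 higher genes were called each time, while the number of lower ones went from 1 to 3; it was 3 without siControl replicate 3, which added TBX2, and 1 without siControl replicate 2 or any 1 siMETTL3 library, which lost INSM1. Of all tested genes, 37.8% were called, 18.6% as higher and 19.2% as lower. In the same 6 genes the groups did not overlap in their 3 values each, which was so for 49.9% of all tested genes. The median log2 fold change of the 8 genes was 0.069, against -0.0021 over all tested genes, and the median of its absolute size was 0.47 against 0.21. Because cells were measured in bulk, fewer cells of a type and less RNA per cell cannot be told apart. The labels do not say whether the replicates were separate cultures, so the p-values measure the spread between these libraries, which may be technical.

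Total counts ranged from 15430000 to 21565013 per library, with siControl replicate 3 the shallowest. Libraries of a group were compared by the chi-square of their counts over genes, per degree of freedom, which is larger for libraries less alike. It was 16.9 and 9.23 for siControl replicate 3 with replicates 1 and 2, and 5.74 between replicates 1 and 2. Within siMETTL3 it was 3.11 to 3.84. METTL3 itself fell from 54.2 ± 1.80 CPM (SD, n = 3; CPM are counts relative to the scaled library size) to 33.04 ± 1.27 CPM (SD, n = 3), or 0.61 of its control level (edgeR FDR 4.68e-06). Genes of noradrenergic neuroblastoma cells differed widely in level in siControl. DBH and CHGA were high, at 1074 and 1117 CPM, and STMN2, TH, PRPH and CHGB stood at 271, 182, 107 and 82.6 CPM. SCG2 and NPY, 2 of the effector genes described below, were low, at 7.83 and 1.66 CPM. CHGA and CHGB are also among the chromaffin cell markers below, so they do not tell these cell types apart. Markers of Schwann cell precursors and fibroblasts were low beside DBH and CHGA. The 9 measured markers of Schwann cell precursors summed to between 9.64 and 10.2 CPM in siControl and between 14.1 and 14.2 CPM in siMETTL3; FABP7 was at 0 in all libraries, and 1 of the 6 tested markers, GFAP, passed the test (higher). The 7 fibroblast markers summed to between 92.5 and 107.3 CPM in siControl and between 94.6 and 102.7 CPM in siMETTL3, and 1 of the 4 tested, COL1A1, was higher. Most of this sum was PDGFRB, which did not pass the test (84.8 ± 7.27 CPM in siControl and 82.8 ± 3.51 CPM in siMETTL3), while COL1A1 stood at 2.96 and 5.26 CPM. Of 6 chromaffin cell markers, of which 5 are also among the effector genes described below, 3 were higher and 1 lower, and they summed to between 1277 and 1359 CPM in siControl and between 1779 and 1920 CPM in siMETTL3, while PNMT, the enzyme of adrenaline synthesis, was near 0 in both groups (0.585 and 0.508 CPM). DBH, PRPH, SCG2, NPY, PNMT and PDGFRB were singled out after their values were seen. The part of such cells in the results below was not tested.

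For the genes with the largest changes, the 250 bases before the RefSeq start site are shown, read on the coding strand (GRCh38), because the factors of this set are known to bind one another's regulatory DNA. They lie at chr4:173530230-173530479 (minus strand), chr5:154478228-154478477 (minus strand), chr3:128493202-128493451 (minus strand) and chr5:51383198-51383447 (plus strand). Capitals mark the GATA core GATAA on either strand and the E-box CANNTG, the letters bound by basic helix-loop-helix factors such as the HAND proteins.
HAND2: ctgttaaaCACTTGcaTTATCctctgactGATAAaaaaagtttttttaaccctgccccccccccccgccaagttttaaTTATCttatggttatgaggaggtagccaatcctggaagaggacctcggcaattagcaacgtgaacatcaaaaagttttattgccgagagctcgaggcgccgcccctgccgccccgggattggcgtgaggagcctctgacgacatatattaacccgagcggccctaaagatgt
HAND1: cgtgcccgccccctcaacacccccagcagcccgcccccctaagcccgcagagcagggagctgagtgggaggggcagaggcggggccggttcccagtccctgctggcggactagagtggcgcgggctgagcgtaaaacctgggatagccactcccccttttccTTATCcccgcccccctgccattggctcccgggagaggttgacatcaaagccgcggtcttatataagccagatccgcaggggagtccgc
GATA2: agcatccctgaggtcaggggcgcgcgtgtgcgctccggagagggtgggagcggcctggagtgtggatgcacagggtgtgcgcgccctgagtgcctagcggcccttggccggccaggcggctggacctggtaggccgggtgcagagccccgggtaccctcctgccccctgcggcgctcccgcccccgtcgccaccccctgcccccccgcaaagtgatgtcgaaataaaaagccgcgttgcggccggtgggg
ISL1: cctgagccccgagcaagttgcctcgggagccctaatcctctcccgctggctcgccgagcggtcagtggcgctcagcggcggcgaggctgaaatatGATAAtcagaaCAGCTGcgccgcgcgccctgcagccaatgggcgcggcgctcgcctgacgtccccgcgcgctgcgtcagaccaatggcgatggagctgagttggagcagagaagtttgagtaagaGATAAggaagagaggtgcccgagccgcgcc
The HAND2 stretch held 3 GATA cores and 1 E-box, and its first E-box and first GATA core stand 2 bases apart. The ISL1 stretch held 2 GATA cores and 1 E-box, and the HAND1 stretch held 1 GATA core and no E-box. No match to either motif was found in the stretch of GATA2. Over the 6 genes with an entry (PHOX2A, HAND1, HAND2, GATA2, GATA3 and ISL1), 3 held a GATA core and 2 an E-box. Of all 35116 RefSeq promoter stretches of the same length, 20.4% held a GATA core and 61.8% an E-box. The homeodomain core TAAT, on either strand and not in capitals here, had 5 matches in HAND2 and 2 in ISL1 and none in the other 4 genes; 47.4% of all stretches held it. These matches are letters in a window and not measured binding. HAND2 and HAND1, which rose, and ISL1, which fell, each hold a GATA core, and any relation of the motifs to the changes in expression was not tested.

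HAND1 and HAND2 encode basic helix-loop-helix factors that work as dimers with E proteins, and HAND2 is needed for the noradrenergic differentiation of sympathetic neurons. HAND2 (chromosome 4, 173524969 to 173530229, minus strand) was measured at 375, 388 and 397 CPM in the siControl libraries and at 532, 563 and 527 CPM in the siMETTL3 libraries. No siMETTL3 library was as low as any control library. Its mean rose from 387 ± 11.0 to 541 ± 19.7 CPM (SD, n = 3) (edgeR log2 fold change 0.48 with a standard error, SE, of 0.056, FDR 1.91e-05). In the reference annotation, 56.3% of the HAND2 span and 24.1% of its exon bases overlap HAND2-AS1, a long noncoding RNA on the opposite strand that is not among the counted genes. The counting set no strand option, so reads of HAND2 and of HAND2-AS1 cannot be told apart in the overlap. HAND1 (chromosome 5, 154474972 to 154478227, minus strand), which overlaps no annotated gene, stood at 110, 116 and 128 CPM in siControl and at 181, 184 and 189 CPM in siMETTL3. Its groups were separate as well, and the mean rose from 118 ± 9.10 to 185 ± 3.94 CPM (edgeR log2 fold change 0.65 with SE 0.063, FDR 4.10e-06).

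GATA2 and GATA3 encode zinc finger factors that bind GATA motifs and act downstream in sympathetic neuron development, where GATA3 is required for tyrosine hydroxylase expression. GATA2 (chromosome 3, 128479427 to 128493201, minus strand) had the largest rise of the 8. It was measured at 339, 324 and 301 CPM in siControl and at 522, 567 and 527 CPM in siMETTL3, with a wide gap between the groups. The mean rose from 321 ± 19.5 to 539 ± 24.8 CPM (SD, n = 3) (edgeR log2 fold change 0.75 with SE 0.062, FDR 1.22e-06). Of all tested genes, 5.45% had a log2 fold change at least as high. GATA3 (chromosome 10, 8045378 to 8075198, plus strand) stood at 128, 127 and 119 CPM in siControl and at 138, 152 and 152 CPM in siMETTL3. The groups did not overlap, but siMETTL3 replicate 1 lay close to the control libraries. The mean rose from 125 ± 4.87 to 147 ± 7.85 CPM, a fold of 1.18 (edgeR log2 fold change 0.24 with SE 0.060, FDR 0.00657). GATA2-AS1 and GATA3-AS1, noncoding RNAs on the opposite strands, cover 29.0% of the GATA2 span and 10.2% of the GATA3 span. They overlap 1.59% and 0% of the exon bases. ENSG00000232638, a noncoding RNA on the same strand as GATA3, covers 5.18% of the GATA3 span and 0% of its exon bases. Introns were counted and no strand option was set, so reads of these RNAs, if any, cannot be told apart from those of the GATA genes there.

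**Figure D1:**
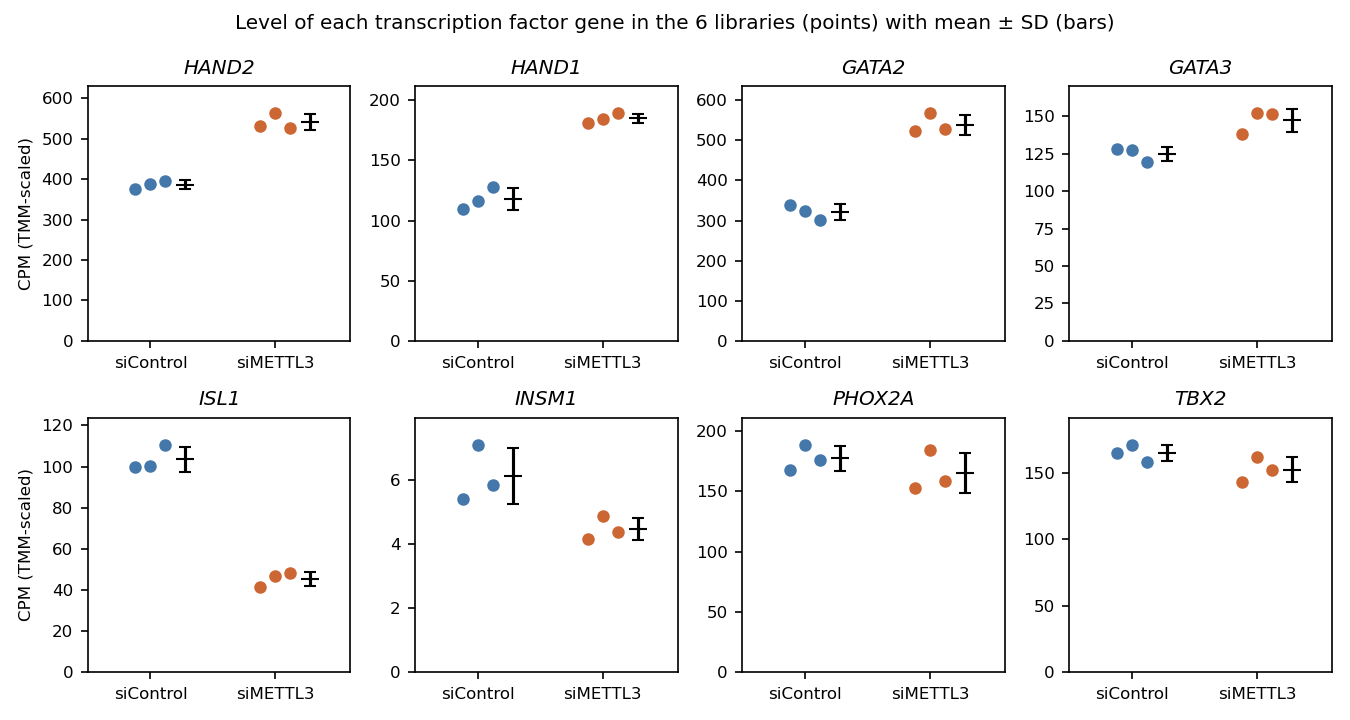
Level of each of the 8 genes in every library, in CPM relative to the TMM-scaled library size, on axes that start at 0; points are libraries, and the bar beside them is the mean ± SD over 3. In HAND2, HAND1, GATA2 and GATA3 all siMETTL3 points lie above all siControl points, in ISL1 and INSM1 they lie below, and in PHOX2A and TBX2 the groups overlap.

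ISL1 and PHOX2A encode homeodomain factors; ISL1, which also carries LIM domains, is needed for the survival and differentiation of sympathetic neurons, and PHOX2A activates the gene for dopamine beta-hydroxylase. ISL1 (chromosome 5, 51383448 to 51394730, plus strand) had the largest change of the set. It was measured at 99.9, 100.05 and 110.6 CPM in the siControl libraries and at 41.5, 46.8 and 48.2 CPM in the siMETTL3 libraries. The highest siMETTL3 library was below every control library by more than the whole range of either group. The mean fell from 103 ± 6.13 to 45.5 ± 3.50 CPM (SD, n = 3) (edgeR log2 fold change -1.18 with SE 0.072, FDR 6.06e-08). Among the 15311 tested genes, 62 (0.405%) were at or below this log2 fold change, ISL1 included. No annotated gene overlaps the ISL1 span.

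PHOX2A (chromosome 11, 72239077 to 72245664, minus strand) was measured at 168, 189 and 176 CPM in siControl and at 153, 184 and 159 CPM in siMETTL3. The groups overlapped, with siMETTL3 replicate 2 above 2 of the 3 control libraries. Its log2 fold change was -0.10 with a 95% interval from -0.26 to 0.058 (edgeR FDR 0.311). Leaving out single libraries moved it from -0.19 (without siMETTL3 replicate 2, edgeR FDR 0.0732) to -0.046 (without siMETTL3 replicate 1, edgeR FDR 0.729), and no such fit passed the threshold. The last 71 bases of PHOX2A, which are 3.98% of its exon bases, overlap the end of INPPL1 on the opposite strand, and a read there was counted for both. INPPL1, a lipid phosphatase gene, was lower, at 97.8 ± 3.34 CPM against 132 ± 9.51 CPM (edgeR log2 fold change -0.44, FDR 0.000139). How many PHOX2A counts come from these bases was not measured.

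TBX2 encodes a T-box repressor that is part of the noradrenergic circuitry in neuroblastoma and acts on cell cycle genes. TBX2 (chromosome 17, 61399843 to 61409466, plus strand) was measured at 165, 171 and 158 CPM in siControl and at 143, 162 and 152 CPM in siMETTL3. One siMETTL3 library, replicate 2, lay within the control range. The log2 fold change was -0.11 with a 95% interval from -0.24 to 0.018 (edgeR FDR 0.164). Without siControl replicate 3 it was -0.14 and passed the threshold (edgeR FDR 0.0427, the lowest of 15 alternatives, whose highest was 0.510). The whole TBX2 span lies within TBX2-AS1 on the opposite strand, and ENSG00000267131, a second antisense RNA, overlaps 28 of its exon bases. Introns were counted and no strand option was set, so reads of TBX2 and of these RNAs cannot be told apart.

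INSM1 encodes a zinc finger transcriptional repressor that acts in early neuroendocrine differentiation and recruits histone-modifying enzymes. INSM1 (chromosome 20, 20368104 to 20370949, plus strand) was by far the least expressed of the 8, with 117, 142 and 88 counts in siControl and 86, 106 and 90 counts in siMETTL3. Relative to library size this was 5.42, 7.11 and 5.84 CPM against 4.18, 4.87 and 4.38 CPM. The groups did not overlap, although the lowest control library was close to the highest siMETTL3 library. The log2 fold change was -0.45 with a 95% interval from -0.81 to -0.093 (edgeR FDR 0.0463). The call was lost without siControl replicate 2 (edgeR log2 fold change -0.33, FDR 0.212) and without any 1 of the siMETTL3 libraries (edgeR FDR 0.0678 to 0.144), and the FDR went from 0.0283 to 0.212 over all 15 alternatives.

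**Figure D2:**
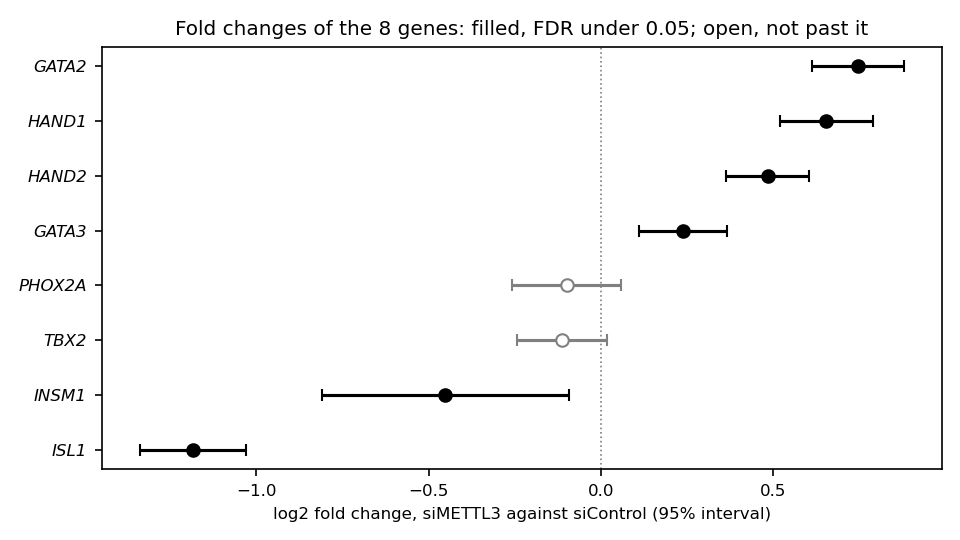
Log2 fold change of each gene in siMETTL3 against siControl (x axis) with its 95% interval from edgeR's quasi-likelihood fit; filled points have an FDR under 0.05. The 4 genes of the HAND and GATA families lie above 0, from 0.24 (GATA3) to 0.75 (GATA2), and ISL1 lies apart at -1.18.

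**Figure D3:**
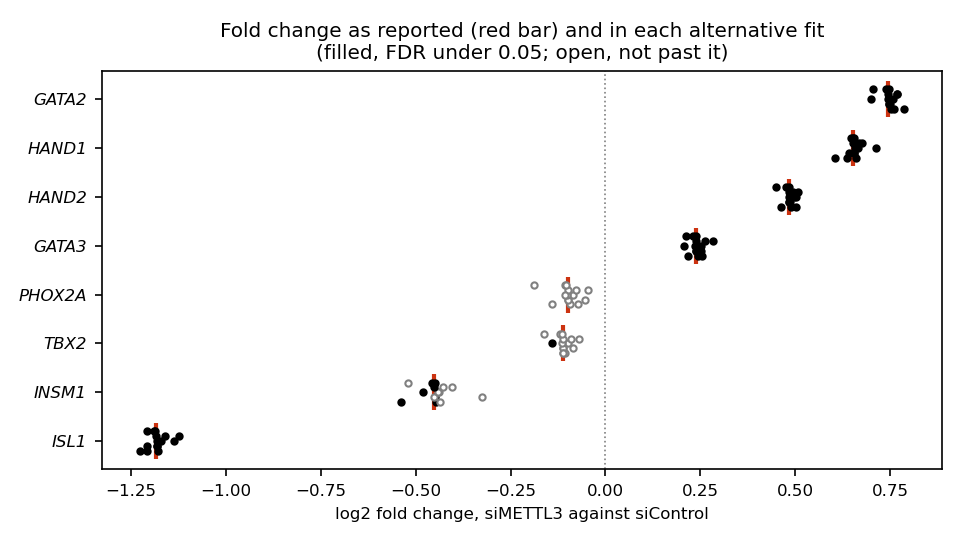
Log2 fold change of each gene as reported (red bar) and in 15 alternative fits (points; filled where the FDR was under 0.05). The points of HAND1, HAND2, GATA2, GATA3 and ISL1 are all filled, those of PHOX2A are all open, and INSM1 has both.

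The balance within the HAND and GATA pairs was compared library by library. The log2 ratio of GATA3 to GATA2 within a library was -1.41, -1.35 and -1.33 in siControl and -1.92, -1.90 and -1.80 in siMETTL3, a difference of -0.51. The log2 ratio of HAND2 to HAND1 was 1.77, 1.74 and 1.64 in siControl and 1.55, 1.61 and 1.48 in siMETTL3, a difference of -0.17. In both pairs every siMETTL3 library lay below every siControl library, and the GATA gap was wide beside the group SDs of 0.039 and 0.065, while the HAND libraries nearly met. Each pair gave p = 0.10 in a two-sided exact permutation test over the 6 libraries (0.10 after adjustment over both), which is the smallest p that 3 against 3 can give, so neither can pass a threshold of 0.05.

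Levels of different genes were compared per kilobase of summed exon length in GENCODE release 44. In siControl the order was HAND2 (107.4 ± 3.05 CPM per kb, SD, n = 3), PHOX2A (99.4 ± 5.93), HAND1 (69.2 ± 5.35), GATA2 (65.4 ± 3.97), GATA3 (36.8 ± 1.43), ISL1 (36.7 ± 2.18), TBX2 (27.1 ± 1.04) and INSM1 (2.15 ± 0.308). The library values of HAND2 and PHOX2A overlapped, as did those of HAND1 and GATA2 and those of GATA3 and ISL1; the other neighbours in this order were separate. In siMETTL3 the order was HAND2 (150 ± 5.46 CPM per kb), GATA2 (109.7 ± 5.04), HAND1 (108.8 ± 2.32), PHOX2A (92.8 ± 9.37), GATA3 (43.4 ± 2.31), TBX2 (25.04 ± 1.55), ISL1 (16.2 ± 1.24) and INSM1 (1.57 ± 0.125). There, GATA2 and HAND1 were the only neighbours whose values overlapped. This order depends on the length used. Per kilobase of gene span, over which the reads were counted, PHOX2A (26.9 CPM per kb) was below HAND1 (36.2) and ISL1 (9.17) was below TBX2 (17.1) already in siControl. In siMETTL3 the order by span was HAND2 (102.8 CPM per kb), HAND1 (56.8), GATA2 (39.1), PHOX2A (25.1), TBX2 (15.8), GATA3 (4.94), ISL1 (4.03) and INSM1 (1.57). By either length GATA2 was below PHOX2A in siControl and above it in siMETTL3. The counts cover introns, so reads of unspliced RNA add to these levels and more to those of genes with long introns.

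**Figure D4:**
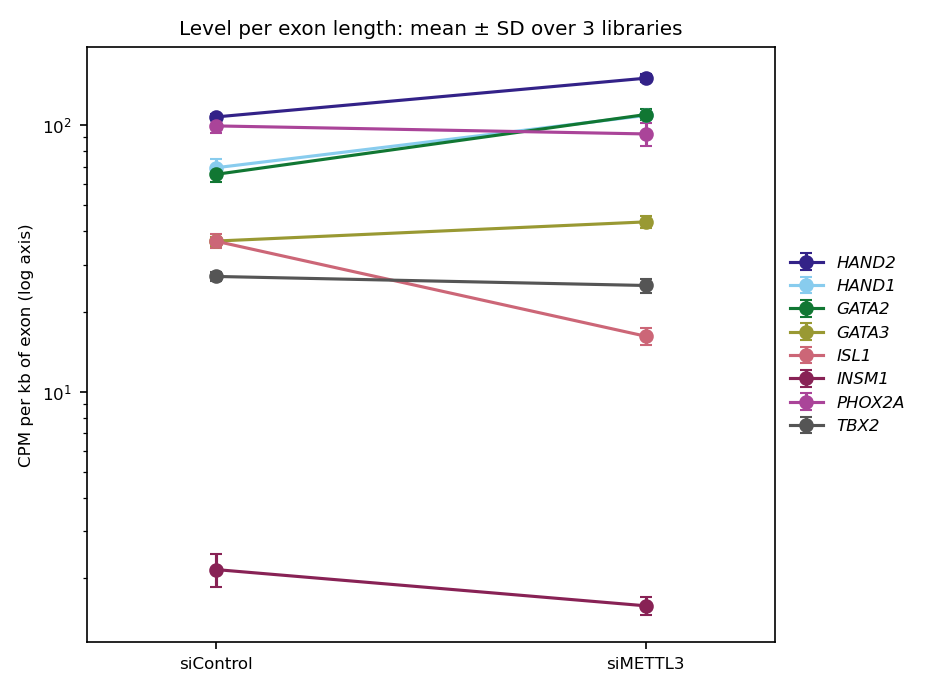
Level per kilobase of exon in siControl and siMETTL3 (y axis, log scale); points are means over 3 libraries and bars the SD. GATA3 and ISL1 start together at 36.8 and 36.7 CPM per kb and end at 43.4 and 16.2.

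The m6A mark itself was not measured in these libraries, but the letters that METTL3 can methylate can be counted. The consensus DRACH (A, G or T; A or G; A; C; A, C or T) was searched on the sense strand of the canonical transcript in GENCODE release 44. It occurred between 8.78 (INSM1) and 18.0 (ISL1) times per kilobase in the 8 transcripts, each below the median of 19.0 over the 14591 tested genes with such a transcript. HAND2, GATA2 and GATA3 held 15.8, 14.5 and 15.9 matches per kilobase, PHOX2A and HAND1 12.9 and 12.3, and TBX2 10.8. Of the strong form GGACT, TBX2 held 0, INSM1 1, PHOX2A 2 and the other 5 genes 3 each, where the median of tested genes was 3. ISL1 was the member richest in DRACH per kilobase, and it also had the lowest GC content (45.4%, against 53.7% to 66.5% in the other 7 and a median of 48.6%). By count, ISL1 held 43 DRACH matches, fewer than GATA2 and GATA3 (49 each) and HAND2 (44). HAND1 held more GGACT per kilobase than ISL1 (1.76 against 1.25). Any relation of these letters to the changes in expression was not tested. The transcripts had few exons, between 1 (INSM1) and 7 (TBX2), against a median of 9.

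Genes whose profile was most like each member's were found as the 2 of 11757 other genes (average log2 CPM of at least 3) with the smallest Euclidean distance over the 6 libraries, each gene centred on its own mean log2 CPM. For ISL1 these were ATF3 and SLC7A11, at distances of 0.18 and 0.20 and with log2 fold changes of -1.26 and -1.20. For HAND1 they were PROX1, a homeobox gene, and BAALC, at distances of 0.054 and 0.058. GATA2 was followed most closely by ZFP1 and DAG1 (0.069 and 0.079), and GATA3 by BBS5 and RNF10 (0.062 and 0.067). The gene nearest to HAND2 was FAM104A (0.066). ISYNA1 and TPGS1 were nearest to PHOX2A (0.054 and 0.084), SPATA2L and L1CAM to TBX2 (0.044 and 0.048), and C8orf82 and LRRC24 to INSM1 (0.072 and 0.091). The distances were larger for ISL1 than for the other 7 genes. With 6 libraries in 2 groups, such likeness mostly reflects a similar difference between the groups.

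Of 18 other transcription factors of the noradrenergic state, all tested, 3 were higher, 8 were lower and 7 did not pass the test. Their median log2 fold change was -0.092. Over all tested genes, 37.8% were called, 18.6% as higher and 19.2% as lower. The counts of this list and of those below are to be read beside these shares. INSM2, the paralogue of INSM1, fell from 493 ± 47.8 to 314 ± 12.1 CPM (edgeR log2 fold change -0.65, FDR 1.07e-05). SOX4, an SRY-related factor of neural progenitors, fell from 97.2 ± 5.88 to 65.4 ± 0.701 CPM (-0.57), and PBX3, a homeodomain cofactor, fell from 231 ± 20.6 to 168 ± 0.680 CPM (-0.46). KLF13, a zinc finger factor, rose from 148 ± 15.0 to 217 ± 2.79 CPM (0.55). MYCN, whose product is part of the same circuitry in amplified cells, rose from 3021 ± 134 to 4638 ± 169 CPM (edgeR log2 fold change 0.62, FDR 5.17e-06).

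Among 23 cofactors and partners of the 8 factors, 21 were tested (not LMO2 and TAL1), of which 5 were higher, 6 were lower and 10 did not pass the test (median log2 fold change -0.073). The LIM-only genes LMO3 and LMO4, whose products bridge GATA, basic helix-loop-helix and LDB proteins, fell from 42.8 ± 3.44 to 26.3 ± 1.99 CPM and from 98.2 ± 13.2 to 67.9 ± 3.91 CPM (log2 fold changes -0.70 and -0.53). RCOR2, a corepressor of the CoREST family, fell by 0.36 on the log2 scale, and EP300, a histone acetyltransferase and coactivator, rose by 0.37. LDB1 and LDB2, which encode partners of LIM domains such as those of ISL1, were chosen for mention after their values were seen. LDB1 fell by 0.25 on the log2 scale (edgeR FDR 0.00500), and LDB2 rose from 174 ± 16.3 to 199 ± 3.74 CPM (edgeR log2 fold change 0.20, FDR 0.0320). Of 10 paralogues of the members, 8 were tested (not GATA1 and TBX5), and 3 were higher and 1 lower (INSM2, median log2 fold change 0.20). Among the higher ones, GATA4 and GATA5 were close to silent, and neither would have been tested on its siControl counts alone. TBX3 rose from 134 ± 2.04 to 166 ± 2.18 CPM (edgeR log2 fold change 0.31, FDR 0.000443), and TBX2 did not pass the test; the difference between the pair was not tested.

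Of 16 effector genes of noradrenergic and neuroendocrine cells, 7 were higher and 4 lower (median log2 fold change 0.070). TH, which encodes the first enzyme of catecholamine synthesis, had a log2 fold change of 1.52, and the vesicular monoamine transporters SLC18A2 and SLC18A1 had 1.08 and 1.20, against 0.75 in GATA2. STMN2, a neuronal microtubule regulator, fell by 0.50 on the log2 scale. CARTPT, which encodes a neuropeptide, rose 6.10-fold to 172 ± 7.07 CPM (SD, n = 3; edgeR log2 fold change 2.61, FDR 1.50e-05), and CHGB, a granin of secretory granules, fell by 0.56 on the log2 scale. Of 20 transcription factors of the mesenchymal state, 17 were tested (not TWIST2, MEOX1 and MEOX2). Of these, 2 were higher and 5 lower (median log2 fold change 0.050), where 37.8% of all tested genes were called. JUN fell from 36.3 ± 3.14 to 20.2 ± 0.378 CPM (-0.85, edgeR FDR 7.37e-06), and TEAD2, SIX4 and TWIST1 had log2 fold changes of -0.67, -0.65 and -0.29. The 2 called higher, PRRX1 and FOSL2, were singled out after their values were seen. PRRX1 rose from 2.86 ± 0.787 to 5.27 ± 1.23 CPM (0.90, edgeR FDR 0.0103). FOSL2 rose from 45.2 ± 2.06 to 52.3 ± 2.30 CPM (0.21, edgeR FDR 0.0277). The summed level of the mesenchymal factors was between 829 and 919 CPM in siControl and between 848 and 886 CPM in siMETTL3.

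**Figure D5:**
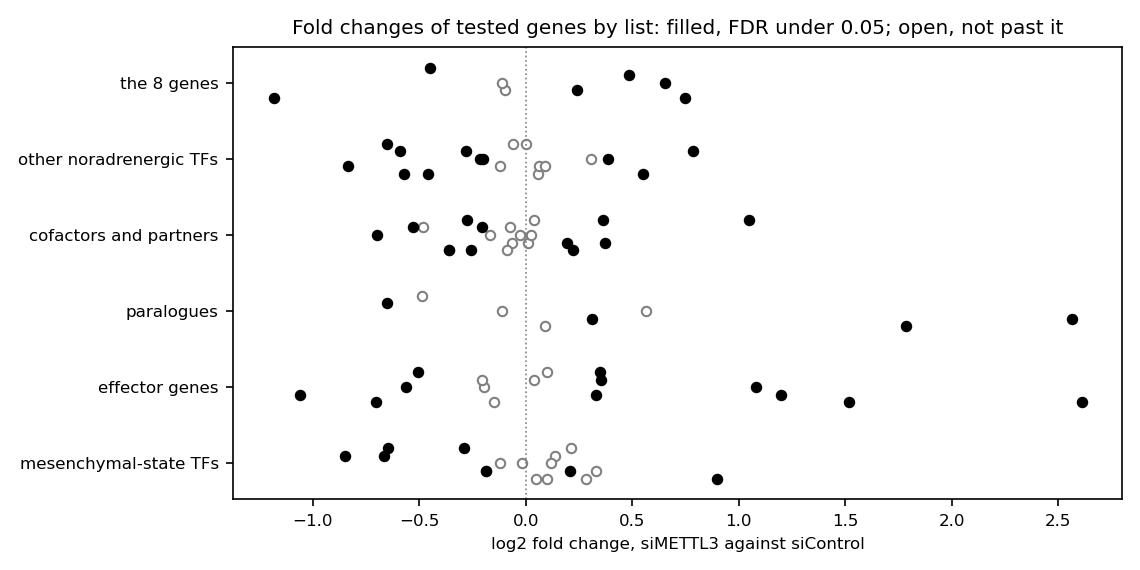
Log2 fold change in siMETTL3 against siControl (x axis) of every tested gene of each list, 1 point a gene; filled points have an FDR under 0.05, and the vertical offset within a list only separates points. Called genes lie on both sides of 0 in all 6 lists.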

How the data were processed

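The deposited tables, 1 for each library, hold raw read counts per gene. The authors counted with featureCounts 1.5.3 and a protein-only GENCODE release 33 annotation, per the file headers, over whole gene spans, introns included, with no strand option and with a read over several genes counted for each. Per the submitters' processing notes, FastQC 0.11.5, Trimmomatic 0.36, HISAT2 2.1.0 and GRCh38 were used. All 8 spans equal those of GENCODE release 44, which gave exons and transcripts here.

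Groups and replicate numbers came from the sample titles. Counts were filtered (filterByExpr), TMM-scaled (trimmed mean of M-values) and tested with edgeR 4.0.16 (R 4.3.3, robust quasi-likelihood F-test, no covariate), with Benjamini-Hochberg adjustment over 15311 genes and a threshold of 0.05. The SE was taken as the size of the log2 fold change over the root of F, and the 95% interval from the total degrees of freedom. Ratios used log2 CPM with a prior count of 0.5. The fit was tested on simulated data. Alternatives were other scalings, filters, DESeq2 1.42.0, limma-voom (limma 3.58.1), dispersions that are not robust, a replicate block, fits without single libraries, and other length and prior count settings.

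The members, gene lists and tests were chosen with earlier results of these data known. The named genes are the 8 members, METTL3, MYCN, genes overlapping a member, from each list up to 4 called genes of smallest FDR, and the 2 most like each member; a gene singled out beside these is said to be so. Of the genes this rule selects, 1 is not reported here. Promoters are RefSeq entries (GRCh38), found for 6 members and shown without the 50 bases after the start site.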

Additional observations from a re-analysis of the deposited data

How the results depend on the processing

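HAND1, HAND2, GATA2, GATA3 and ISL1 kept their direction and stayed past the threshold in all 15 alternatives run for each, and the highest FDR of GATA3 was 0.0440. No member changed sign. INSM1 was no longer past it with upper-quartile scaling (log2 fold change -0.44), total-count scaling (-0.43), DESeq2 (-0.45) and limma-voom (-0.44), each of which left 1 member called lower; the cause was not tested. Across the fits that each left out 1 library, INSM1 went from -0.54 to -0.33, TBX2 from -0.16 to -0.070, and the members called lower from 1 to 3. No member called higher was lost in any fit, and none was added. The scalings moved the median log2 fold change of all genes by at most 0.023 (to 0.021, total counts). Divided by the gene span in place of exons, the siControl levels gave another order: HAND2 (73.5 CPM per kb), HAND1 (36.2), PHOX2A (26.9), GATA2 (23.3), TBX2 (17.1), ISL1 (9.17), GATA3 (4.19) and INSM1 (2.15). The GATA3 to GATA2 difference went from -0.55 to -0.49 and the HAND2 to HAND1 difference from -0.21 to -0.14 without single libraries.

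Same-numbered libraries were not paired in the main fit, because the labels do not say that a number marks a shared batch. Deviations from the group means correlated at 0.034 to 0.053 for the same number and at -0.053 to 0.021 for different numbers. A fit with the replicate block called 3047 genes higher and 3119 lower, against 2849 and 2937 without it. The block fit gave -1.19 for ISL1, and no member changed its call. INSM1, the member with the fewest reads, had at most 142 counts in a library.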

Other observations

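Of the other GATA paralogues, GATA4 and GATA5 were higher in siMETTL3, GATA6 did not pass the test (2.68 ± 0.187 CPM in siControl and 2.48 ± 0.170 CPM in siMETTL3, SD, n = 3; edgeR log2 fold change -0.11, FDR 0.729), and GATA1 was too low to be tested. GATA4 and GATA5, which serve heart and gut development, were close to silent: GATA4 had 6, 8 and 9 counts in siControl and 24, 34 and 32 in siMETTL3 (edgeR FDR 0.00293), and GATA5 had 5, 1 and 0 counts against 12, 15 and 14 (edgeR FDR 0.00993). No fold is given for GATA5 because its control counts are so few. Neither GATA4 nor GATA5 would have passed the expression filter on its siControl libraries alone. That they were tested at all depended on their siMETTL3 counts, so their FDRs are not support for a rise. ZFPM1 and ZFPM2 encode cofactors that bind the GATA zinc finger, and they and GATA6 were chosen after their values were seen. ZFPM1 stood at 40.1, 29.9 and 22.4 CPM in siControl and at 61.4, 69.4 and 62.0 CPM in siMETTL3 (log2 fold change 1.05, SE 0.18, edgeR FDR 0.00396), with the control libraries widely spread. The more abundant ZFPM2 did not pass the test, at 358 ± 54.8 CPM in siControl and 337 ± 14.1 CPM in siMETTL3 (edgeR log2 fold change -0.087, FDR 0.487).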
